A study of Homo sapiens with 32 samples.

Results

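The replication-dependent core histone genes and the linker histone genes were followed in RH4, a human cell line established from alveolar rhabdomyosarcoma. The members were all coding genes named H2AC, H2BC, H3C or H4C followed by a number, together with H1-1 to H1-6, which gave 66 of the 18980 coding genes in the deposited tables. They comprised 6 H1, 16 H2A, 17 H2B, 13 H3 and 14 H4 genes. RNA-seq of total RNA covered 20 libraries. Cells were given 1 of 4 compounds (A485, dCBP, IHK-44, JQAD), each in a dose of 100 nM and of 1000 nM, and were collected after 2 h and 6 h. The controls were the solvent DMSO and a group called NT, a term that is not explained in the labels, both at the same times. The series tested inhibitors or degraders of CBP/p300, the paired histone acetyltransferases and coactivators. A485 is known as an inhibitor of their catalytic activity, and the labels do not say to which class the other compounds belong. Each condition had 1 library, all cells were of 1 line, and all libraries carried the same date tag. The ChIP-seq and ChRO-seq samples of the series were not analysed here.

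Core histones H2A, H2B, H3 and H4 form the protein core around which DNA is wrapped, and linker histone H1 binds where DNA enters and leaves it. Most of their mRNA is made in S phase from clustered, intronless genes in a nuclear body organised by NPAT, so that histone supply keeps pace with DNA synthesis. These mRNAs usually end in a stem-loop bound by SLBP and lack a poly(A) tail. Variants such as H3-3B or H2AZ1 come from genes outside the clusters, which are transcribed throughout the cell cycle and whose mRNAs are polyadenylated. Whether the libraries were made by poly(A) selection or by removal of ribosomal RNA is not given in the sources used here.

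The sequence before the start was searched for short motifs known from histone promoters. RefSeq promoters (GRCh38.p14, 250 bases before to 50 after the start) were found for 61 of the 66 members. In these 300-base windows TATAAA (the TATA box, read on the gene's strand) was found in 36 of the 61 members, or 59.0%, against 7.71% of 27305 promoters of all genes. CCAAT, read on both strands, was found in every H1, H2A, H2B and H3 member with an entry but in 3 of 12 H4 members, and in 35.7% of all promoters. ATTTGCAT, the octamer bound by POU2F1, was read on both strands and found in 14 of 17 H2B and 11 of 15 H2A members, in 1 of 11 H3 members, in no H1 or H4 member, and in 1.80% of all promoters. The H3 match was in H3C4, whose annotated start is that of H2AC7, so both windows hold the same site. The H3 count for CCAAT includes this shared window too. In H2A genes 10 of the 11 matches lay on the opposite strand. A site between an H2A and an H2B gene that face away from each other can be counted for both. In H2AC6 and H2BC4, with 246 bases between their starts, the matches at 130 and 123 bases before the start are the same site. AAACACA, an element known from H1 promoters, was read on both strands and found in all 6 H1 members and in 5.76% of all promoters. The median GC content of the windows was 43% over members and 58.3% over all promoters, and the shares were not adjusted for it. These are matches of letters and not measured binding sites. No marked motifs overlap in the stretches shown.

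The 150 bases before the start are shown for the most highly expressed gene of each type (H4C14 stands for H4C15), for H2BC5, whose change had the smallest adjusted p, and for H2AC4 and H2BC3, which were called lower in 1 or more comparisons. Capitals mark TATAAA on the gene's strand and CCAAT, ATTTGCAT or AAACACA on either strand, so that a match on the opposite strand reads ATTGG or ATGCAAAT.
H1-2 (chr6:26056471-26056620, minus strand): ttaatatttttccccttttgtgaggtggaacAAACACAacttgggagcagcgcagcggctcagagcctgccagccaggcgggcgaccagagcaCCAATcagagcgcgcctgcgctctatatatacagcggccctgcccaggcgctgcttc
H2AC18 (chr1:149842751-149842900, minus strand): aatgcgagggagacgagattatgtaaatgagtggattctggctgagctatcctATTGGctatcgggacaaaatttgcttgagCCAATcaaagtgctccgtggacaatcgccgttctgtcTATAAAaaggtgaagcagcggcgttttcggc
H2BC18 (chr1:149812371-149812520, minus strand): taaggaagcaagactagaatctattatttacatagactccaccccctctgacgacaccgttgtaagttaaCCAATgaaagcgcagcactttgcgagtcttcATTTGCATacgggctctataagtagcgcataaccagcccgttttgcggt
H3C15 (chr1:149852458-149852607, plus strand): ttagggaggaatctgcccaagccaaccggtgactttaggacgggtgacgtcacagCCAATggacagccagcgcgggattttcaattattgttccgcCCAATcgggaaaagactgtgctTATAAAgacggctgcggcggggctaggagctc
H4C14 (chr1:149832507-149832656, plus strand): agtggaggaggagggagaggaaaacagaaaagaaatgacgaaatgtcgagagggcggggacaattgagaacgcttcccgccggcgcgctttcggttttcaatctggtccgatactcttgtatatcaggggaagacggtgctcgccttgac
H2BC5 (chr6:26157971-26158120, plus strand): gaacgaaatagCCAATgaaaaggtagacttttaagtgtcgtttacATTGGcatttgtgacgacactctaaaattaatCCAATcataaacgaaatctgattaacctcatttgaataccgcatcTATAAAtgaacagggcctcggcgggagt
H2AC4 (chr6:26033619-26033768, minus strand): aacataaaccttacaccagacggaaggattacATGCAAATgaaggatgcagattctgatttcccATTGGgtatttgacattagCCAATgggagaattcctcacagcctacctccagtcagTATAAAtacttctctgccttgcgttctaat
H2BC3 (chr6:26043714-26043863, minus strand): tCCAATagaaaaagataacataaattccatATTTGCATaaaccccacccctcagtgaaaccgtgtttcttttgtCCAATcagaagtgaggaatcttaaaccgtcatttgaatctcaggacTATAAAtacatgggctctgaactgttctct
TATAAA began 31 bases before the start in H2AC18, 32 in H3C15, 28 in H2BC5 and 30 in both H2AC4 and H2BC3. The octamer began 49 bases before the start in H2BC18 and 120 in H2BC3. AAACACA began 119 bases before the start in H1-2. None of these motifs was found in the H4C14 stretch, and H4C14 and H4C15 had the same base at all 150 positions. The number of CpG pairs in the 300-base window was 27 in H2AC18, 21 in H4C14, 15 in H1-2, 11 in H2BC5, 6 in H2AC4 and 3 in H2BC3, and the median was 11 over members and 14 over all promoters.

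Levels are given as CPM, the deposited counts scaled to the coding reads of each library. Averaged over the 20 libraries, 45 of the 66 members reached 1 CPM or more and 21 lay below it. The coding reads per library ran from 13466631 to 16799327, and 15 reads of H2BC3 in DMSO at 2 h, for instance, made 0.900 CPM. H4C7 and H4C9 had no read in any library, which allows up to 3 reads of all 301684000 coding reads, or 0.00994 CPM, counting error only. The genes lie in clusters on chromosomes 1 and 6. All 11 members at chr1:149782689-149887965 had a mean above 1 CPM, as did 22 of 34 at chr6:25726063-26285534 and 12 of 16 at chr6:27807479-27893891. Among the chromosome 1 members, H2AC19 had a mean of 3.22 CPM but was at 0 in most libraries. The 5 members at chr6:27132316-27147562, among them H2BC11 and H2AC12, reached at most 0.301 CPM in any library. Expressed and near-silent genes stood side by side within a cluster.

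**Figure D1:**
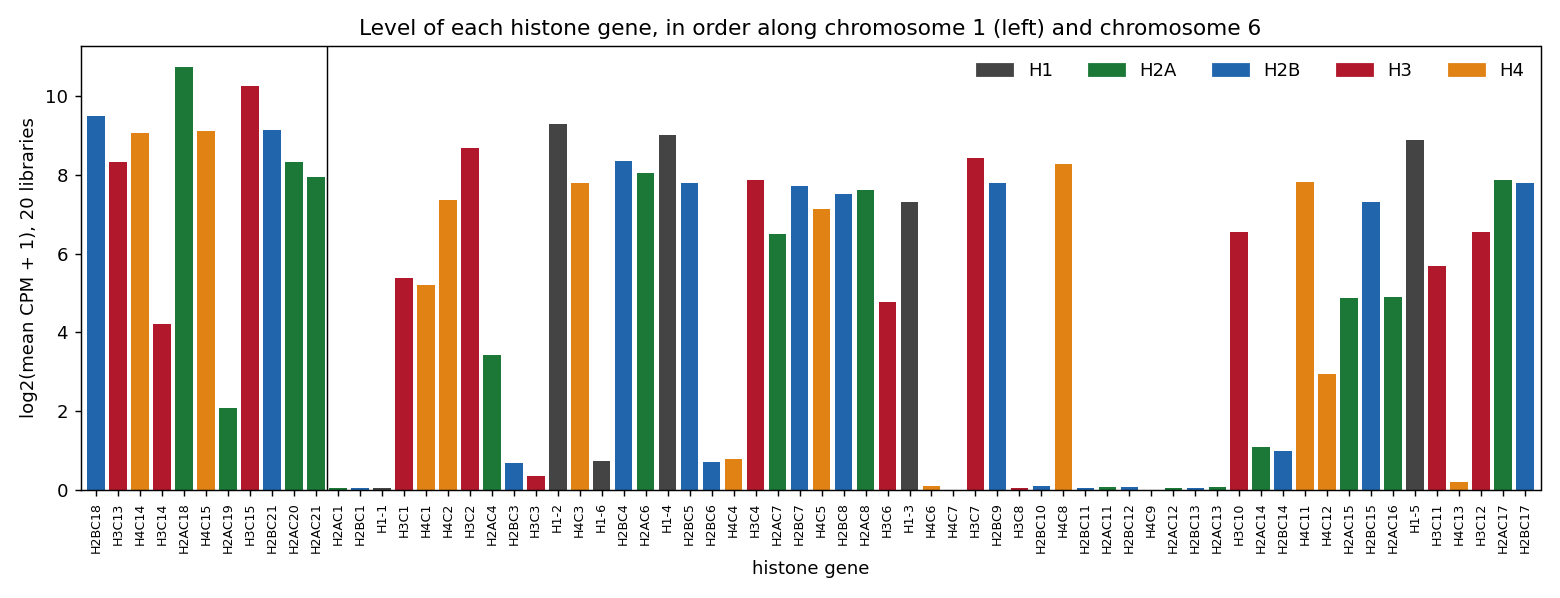
Mean level of each of the 66 histone genes over 20 libraries, as log2(mean CPM + 1), in order along chromosome 1 (left of the line) and chromosome 6 (right), coloured by histone type. All 11 chromosome 1 genes have a mean above 1 CPM, although H2AC19 was at 0 in most libraries, while 21 genes on chromosome 6 lie at or near the axis.

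Pairs were sought only among members with a promoter entry, which left out H2AC12. Of these genes, 10 pairs of an H2A and an H2B gene faced away from each other with 194 to 248 bases between their starts. Both genes averaged 1 CPM or more in 6 pairs, and neither did in 3 pairs. The remaining pair straddled the limit, with H2AC14 at 1.10 and H2BC14 at 0.975 CPM. In the pair H2AC6 and H2BC4 the means were 265 and 328 CPM, and in H2AC11 and H2BC11 they were 0.0468 and 0.0313 CPM. Partners could also differ, as in H2AC15 and H2BC15 at 28.3 and 158 CPM. H2AC7 and H2BC7 were at 89.2 and 210 CPM, but H2AC7 lies within the annotated span of H3C4. Reads there may have been divided between H2AC7 and H3C4, so the level of H2AC7 is uncertain.

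Per unit of length, in TPM, the summed level of each type in the DMSO and NT libraries was 2798 to 3153 for H1, 8423 to 9007 for H2A, 7260 to 7714 for H2B, 7946 to 8942 for H3 and 8824 to 10413 for H4. H1 lay below every core type, and the ranges of H2A, H3 and H4 overlapped.

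Reads that fitted more than 1 gene were divided among them by the counting, so near-identical copies are uncertain singly. Fractional counts, the sign of such division, occurred in 16 of the 66 members, and in none of the H1 genes. Not all of them are copies: H3C4 (chr6:26196784-26199293) and H2AC7 (chr6:26198784-26199293) are of different types, had fractional counts in all 20 libraries, and have overlapping annotated spans. H4C14 held 48.6% to 49.4% of the H4C14 and H4C15 reads in every library. H2AC19 was listed at 0 in 16 libraries and at 14.9 to 17.6 CPM in the other 4, beside 1211 to 2351 CPM for its near copy H2AC18. H2AC18 held 98.7% to 100% of the pair in every library, and no change is read for H2AC19. The sum of the pair was 1276 and 1508 CPM in DMSO at 2 h and 6 h, 1292 and 1493 in NT, 1918 to 2351 with dCBP, 1858 to 2305 with IHK-44, 1300 to 1704 with A485 and 1211 to 1829 with JQAD.

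All 66 members together took 0.935% and 1.16% of coding reads in DMSO at 2 h and 6 h, 0.933% and 1.116% in NT, 1.31% to 1.82% with dCBP and 1.38% to 1.78% with IHK-44. The shares were 0.902% to 1.23% with A485 and 0.890% to 1.31% with JQAD. With dCBP and IHK-44 every library exceeded all 4 control libraries, whereas A485 and JQAD overlapped the controls. The level also rose with time in the controls, from 9348 to 11554 summed CPM in DMSO and from 9332 to 11156 in NT, so each treated library is set against DMSO of its own time.

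H4 mRNA had the highest ratio to DMSO. Its summed level was 1417 and 1835 CPM in DMSO at 2 h and 6 h and 1400 and 1760 in NT. With dCBP it was 2777 (1000 nM) and 2313 (100 nM) at 2 h, and 2998 and 3846 at 6 h. With IHK-44 it was 2453 and 2354 at 2 h, and 3300 and 3206 at 6 h. All libraries of these compounds lay above every control. The log2 ratio to DMSO was 0.86 ± 0.18 (SD, n = 4 libraries of different dose and time) for dCBP and 0.79 ± 0.05 for IHK-44. The CPM ratio was also above DMSO in all 4 libraries of both compounds for H2A (0.61 ± 0.11 and 0.61 ± 0.03), H2B (0.56 ± 0.10 and 0.66 ± 0.04) and H3 (0.59 ± 0.17 and 0.59 ± 0.01), although in TPM the lowest dCBP library was below DMSO for each of these types. H1 had the smallest ratio, 0.30 ± 0.08 and 0.31 ± 0.04, and in TPM its sign turned, to -0.19 and -0.18. TPM was scaled over all quantified genes, and the coding rows held a smaller part of it with these compounds than in DMSO. In CPM, A485 and JQAD gave mean ratios between -0.12 and 0.15 over the 5 types, with libraries on both sides of DMSO. In TPM every A485 library was above DMSO for each type, with mean ratios of 0.11 to 0.26. As a share of the TPM in coding rows alone, all members together lay on both sides of DMSO with A485. No test was made of these sums.

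**Figure D2:**
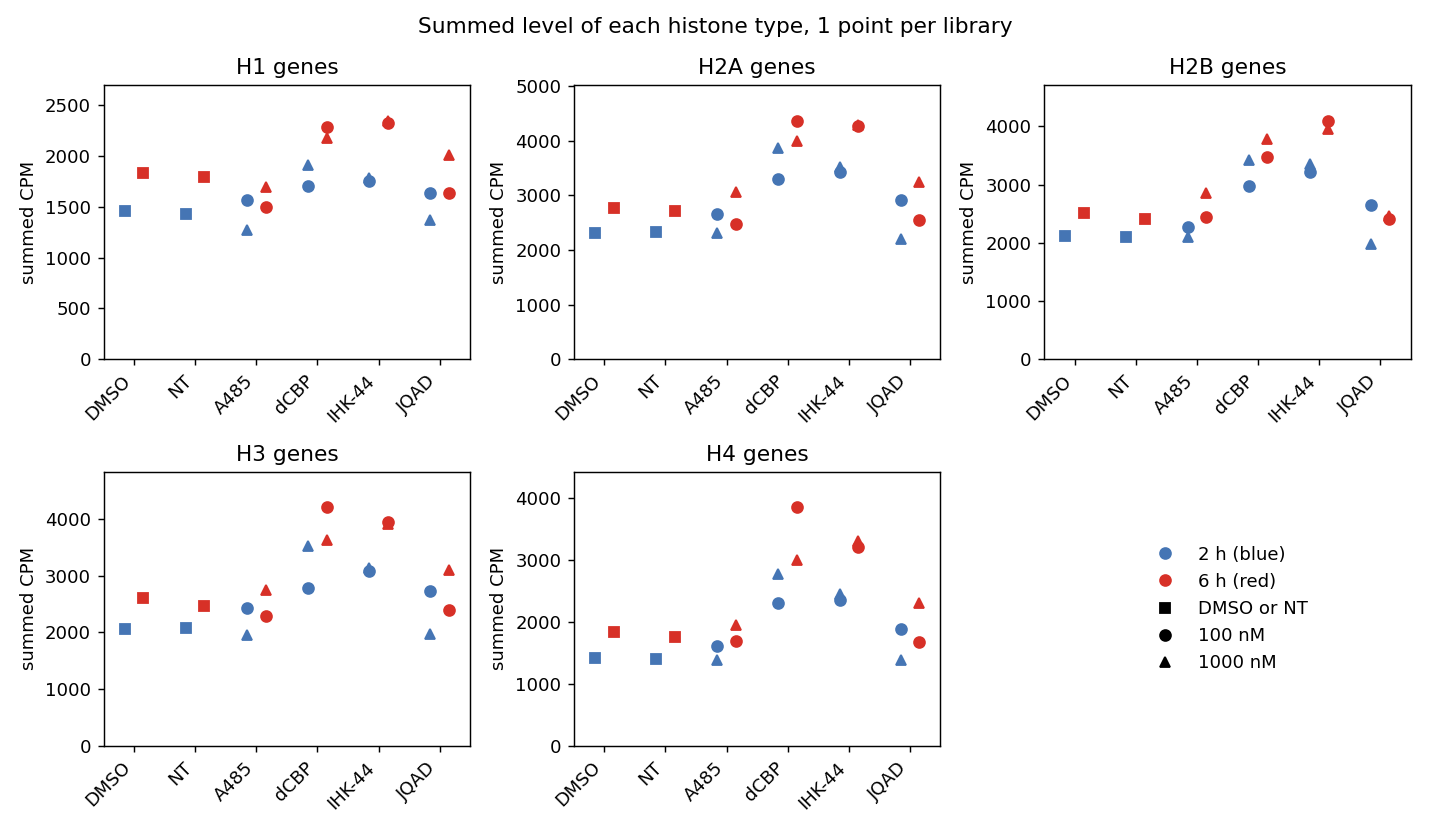
Summed CPM of the H1, H2A, H2B, H3 and H4 genes in each of the 20 libraries, with time as colour and dose as symbol. For H2A, H2B, H3 and H4 all dCBP and IHK-44 libraries lie above the DMSO and NT libraries, and the A485 and JQAD libraries overlap them.

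Scale matters to these levels. TPM was scaled by the authors over all quantified genes, and the coding rows held 44.5% and 39.3% of TPM in DMSO, 27.9% to 35.4% with dCBP and 31.2% to 34.6% with IHK-44. In TPM the mean log2 ratio of summed H4 to DMSO was 0.32 and 0.29 for these compounds, and those of H2A, H2B and H3 were between 0.07 and 0.18. For A485, whose coding rows held 43.0% to 53.9% of TPM, the mean TPM ratios of H1, H2A, H2B and H3 exceeded those of dCBP and IHK-44. Of the TPM in coding rows alone, all members took 7.99% and 9.98% in DMSO at 2 h and 6 h. The share was 11.09% to 13.93% with dCBP and 11.41% to 14.21% with IHK-44. With A485 it was 7.89% and 8.79% at 2 h and 10.52% and 9.23% at 6 h (1000 and 100 nM), on both sides of DMSO. This share was not computed by type, so the sign of H1 on that scale was not tested. Reads outside the coding rows made up 5.63% and 6.36% of the total in DMSO, 8.36% to 11.3% with dCBP and 8.20% to 9.58% with IHK-44. Their part in the rise of histone reads was not tested.

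Differences between compounds were tested with edgeR's quasi-likelihood test on the rounded expected counts, in a model of compound and time. The 2 doses and 2 times of a compound stood in for replicates, and p-values measure only the spread between these libraries. Of the 66 members, 50 passed the filter on low counts, among them all 45 with a mean of at least 1 CPM. A call is a Benjamini-Hochberg adjusted p under 0.05 over all 13260 genes tested.

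With dCBP, 24 of the 50 members tested were called higher than in DMSO and none lower. Over all genes 23.7% were called in either direction and 11.8% higher. The calls comprised 7 of 10 H4, 7 of 12 H2B, 6 of 12 H2A, 3 of 11 H3 and 1 of 5 H1 members tested. With IHK-44, 27 members were called higher and 1 lower, where 16.9% of all genes were called in either direction and 7.74% higher. Here the higher calls were 7 of 12 H2B, 7 of 12 H2A, 7 of 11 H3, 5 of 10 H4 and 1 of 5 H1 members. Both compounds shared the DMSO libraries, and 22 members were called higher with each of them. The median fitted log2 change of the tested members was 0.41 for dCBP and 0.46 for IHK-44, beside 0.05 and 0.04 over all genes. On the TPM scale the split turned to 4 higher and 5 lower for dCBP and to 4 and 4 for IHK-44, where limma called 31.1% and 30.1% of all genes in either direction. The median of all genes there was -0.25 and -0.27, and the members' median lay 0.26 and 0.34 above it, beside 0.36 and 0.42 in the main scaling. The members higher on both scales were H2BC5, H4C3, H4C14 and H4C15 with each compound, and those lower in TPM were H2AC4, H2BC3, H2BC6 and H2BC14, with H1-3 added for dCBP.

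H2BC5 (chr6:26158121-26171349), an H2B gene, had the smallest adjusted p with each compound. Its level was 150 and 172 CPM in DMSO at 2 h and 6 h and 143 and 170 in NT. With dCBP it was 282 and 239 at 2 h (1000 and 100 nM), and 330 and 335 at 6 h. With IHK-44 it was 295 and 255 at 2 h, and 338 and 331 at 6 h. All 4 libraries of each compound exceeded every control. The fitted log2 change by edgeR was 0.77 ± 0.12 (SE, adjusted p = 0.00114) for dCBP and 0.80 ± 0.12 (adjusted p = 0.000629) for IHK-44.

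H4C15 (chr1:149844488-149861240), the H4 gene with the highest mean, and its near copy H4C14 (chr1:149832657-149833052) followed with dCBP. H4C15 was at 333 and 454 CPM in DMSO and 329 and 424 in NT at 2 h and 6 h. It reached 711 and 588 CPM at 2 h and 814 and 1025 at 6 h with dCBP (1000 and 100 nM). With IHK-44 it stood at 629 and 586 at 2 h and 891 and 842 at 6 h. These libraries all lay above the controls, and the log2 changes were 0.88 ± 0.14 (edgeR adjusted p = 0.0015) and 0.78 ± 0.14 (adjusted p = 0.00264). A485 gave 355 and 381 CPM at 2 h and 493 and 406 at 6 h, and JQAD 326 and 444 at 2 h and 554 and 405 at 6 h, in the same dose order, which overlapped the controls. H4C14 changed by 0.89 ± 0.14 and 0.80 ± 0.14, though the pair cannot be read as independent genes. The annotated span of H4C15 also overlaps H2AC19 and H3C15, and whether counting used strand is not given in the sources used here.

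H2BC18 (chr1:149782689-149812370) was the most abundant H2B gene. In DMSO it was at 533 and 628 CPM and in NT at 509 and 599 at 2 h and 6 h. It stood at 886 and 755 at 2 h and 997 and 861 at 6 h with dCBP, and at 912 and 861 at 2 h and 1036 and 1108 at 6 h with IHK-44 (1000 and 100 nM). A485 gave 548 and 569 at 2 h and 741 and 610 at 6 h, and JQAD 484 and 668 at 2 h and 567 and 628 at 6 h. The dCBP and IHK-44 libraries lay above all others. The log2 change was 0.48 ± 0.11 for dCBP and 0.64 ± 0.11 for IHK-44, with edgeR adjusted p of 0.00853 and 0.00212. H2BC9 (chr6:26251614-26252075), another H2B gene, rose from 162 and 194 CPM in DMSO to 237 to 290 with dCBP and 245 to 338 with IHK-44, by 0.46 ± 0.10 and 0.57 ± 0.10 on the log2 scale.

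H2AC18 (chr1:149842218-149842750) had the highest mean of all members, 1710 CPM. It was at 1260 and 1508 CPM in DMSO and 1275 and 1493 in NT at 2 h and 6 h. It stood at 2085 and 1918 at 2 h and 2123 and 2351 at 6 h with dCBP, and at 1896 and 1858 at 2 h and 2294 and 2305 at 6 h with IHK-44 (1000 and 100 nM). A485 gave 1300 and 1458 at 2 h and 1704 and 1359 at 6 h, and JQAD 1211 and 1584 at 2 h and 1829 and 1387 at 6 h. The dCBP and IHK-44 libraries again exceeded all others, and the log2 change was 0.51 ± 0.12 (edgeR adjusted p = 0.00903) for dCBP and 0.48 ± 0.12 (adjusted p = 0.0156) for IHK-44.

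H3C15 (chr1:149852608-149853125), the most abundant H3 gene, was at 849 and 1090 CPM in DMSO and 845 and 1001 in NT. It was at 1622 and 1212 at 2 h and 1638 and 2138 at 6 h with dCBP, and at 1370 and 1350 at 2 h and 1714 and 1712 at 6 h with IHK-44 (1000 and 100 nM). A485 gave 784 and 1014 at 2 h and 1167 and 890 at 6 h, and JQAD 821 and 1166 at 2 h and 1284 and 965 at 6 h. The lowest dCBP library, at 100 nM and 2 h, lay below JQAD at 1000 nM and 6 h. The log2 change was 0.66 ± 0.17 (edgeR adjusted p = 0.0138) for dCBP and 0.55 ± 0.17 (adjusted p = 0.0339) for IHK-44. Its reads are shared with H3C13 and H3C14. The sum of these 3 genes was 1086 and 1422 CPM in DMSO, 1516 to 2669 with dCBP and 1665 to 2165 with IHK-44.

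**Figure D3:**
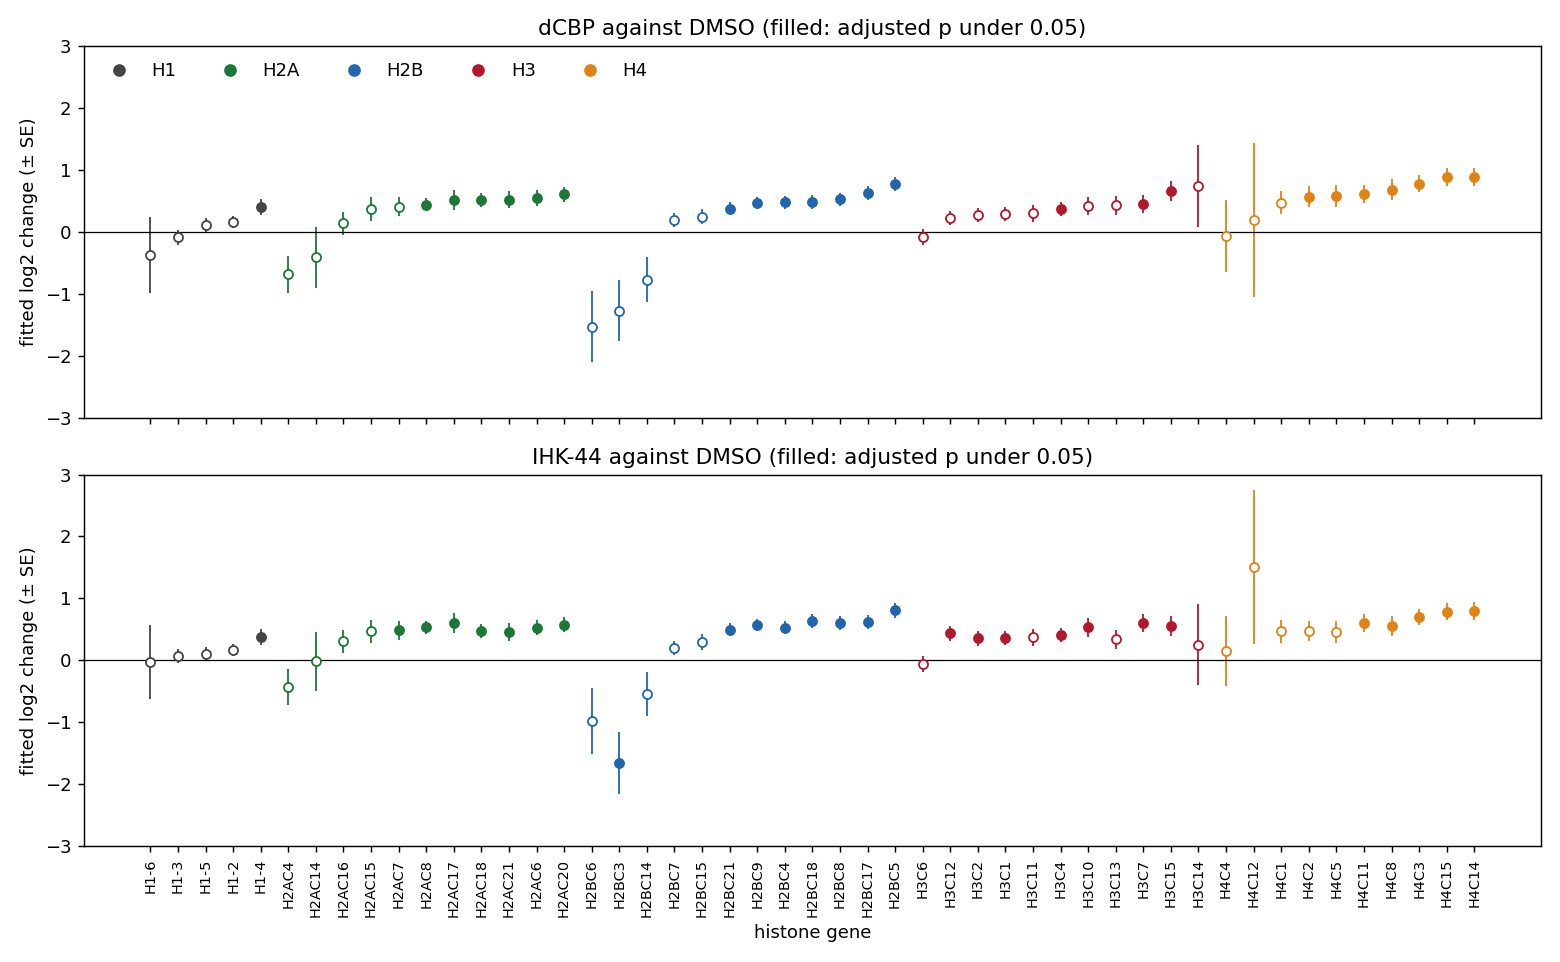
Fitted log2 change against DMSO with its standard error for 49 tested histone genes (H2AC19 left out), dCBP above and IHK-44 below, coloured by type and ordered within type by the dCBP value. Filled points have an adjusted p under 0.05: most H4, H2B and H2A points lie near 0.5, and the points below 0 belong mainly to genes of low level.

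The 5 tested linker genes had a median fitted log2 change of 0.11 with dCBP and 0.10 with IHK-44, below the medians of every core type (0.37 to 0.59 and 0.37 to 0.57), a difference that was not tested. H1-2 (chr6:26055740-26056470), the most abundant, was at 529 and 646 CPM in DMSO and 519 and 646 in NT at 2 h and 6 h. With dCBP it was at 643 and 567 at 2 h and 780 and 844 at 6 h, and with IHK-44 at 610 and 593 at 2 h and 846 and 821 at 6 h (1000 and 100 nM). A485 gave 455 and 537 at 2 h and 605 and 533 at 6 h, and JQAD 482 and 579 at 2 h and 695 and 580 at 6 h. Within a time the dCBP and IHK-44 libraries were above the controls, but the fitted log2 changes of 0.15 ± 0.10 and 0.16 ± 0.10 did not pass, with edgeR adjusted p of 0.251 and 0.25.

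H1-4 (chr6:26156329-26157115) was the 1 linker gene called with each compound. It was at 390 and 501 CPM in DMSO and 370 and 458 in NT, at 509 to 737 with dCBP and at 551 to 717 with IHK-44. The log2 change was 0.40 ± 0.13 (edgeR adjusted p = 0.0325) and 0.38 ± 0.12 (adjusted p = 0.0467). H1-3 (chr6:26234212-26234987) was at 125 and 189 CPM in DMSO, with changes of -0.09 ± 0.11 and 0.07 ± 0.12. H1-5 (chr6:27866792-27867588) was at 410 and 496 CPM in DMSO, with changes of 0.11 ± 0.11 and 0.10 ± 0.11. H1-6 (chr6:26107412-26108135), known as a testis gene, reached at most 1.55 CPM and was not called with either compound. H1-1 (chr6:26017032-26017787) had at most 0.194 CPM in any library and was not tested. That H1-4 differed from the other linker genes was not tested.

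A few genes of low level had fitted changes below 0. H2AC4 (chr6:26033092-26033618), an H2A gene at a mean of 9.76 CPM, was at 8.70 and 12.04 CPM in DMSO and 10.4 and 14.1 in NT at 2 h and 6 h. At 2 h it was at 9.76 and 8.10 with dCBP and 10.4 and 9.75 with IHK-44 (1000 and 100 nM), which overlapped the controls. At 6 h it was at 5.01 and 5.31 with dCBP and 6.56 and 7.02 with IHK-44, below both controls. With A485 it was at 7.50 and 10.99 at 2 h and 6.66 and 11.3 at 6 h, and with JQAD at 11.6 and 13.4 at 2 h and 14.5 and 12.3 at 6 h. The change over both times against DMSO was -0.69 ± 0.29 for dCBP and -0.43 ± 0.29 for IHK-44, which did not pass (edgeR adjusted p = 0.0933 and 0.297).

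H2BC3 (chr6:26043227-26043713), the next H2B gene along chromosome 6, was the 1 member called lower with IHK-44 against DMSO, at -1.66 ± 0.50 (edgeR adjusted p = 0.0343). It rested on few reads: 15 and 18 in DMSO, 7 and 9 in NT, 8 and 8 at 2 h and 2 and 4 at 6 h with IHK-44, and 9 and 11 at 2 h and 2 and 4 at 6 h with dCBP. The 2 h IHK-44 libraries overlapped NT. With NT as the control the call was lost (adjusted p = 0.457), and dCBP gave -1.27 ± 0.49 (adjusted p = 0.0674).

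**Figure D4:**
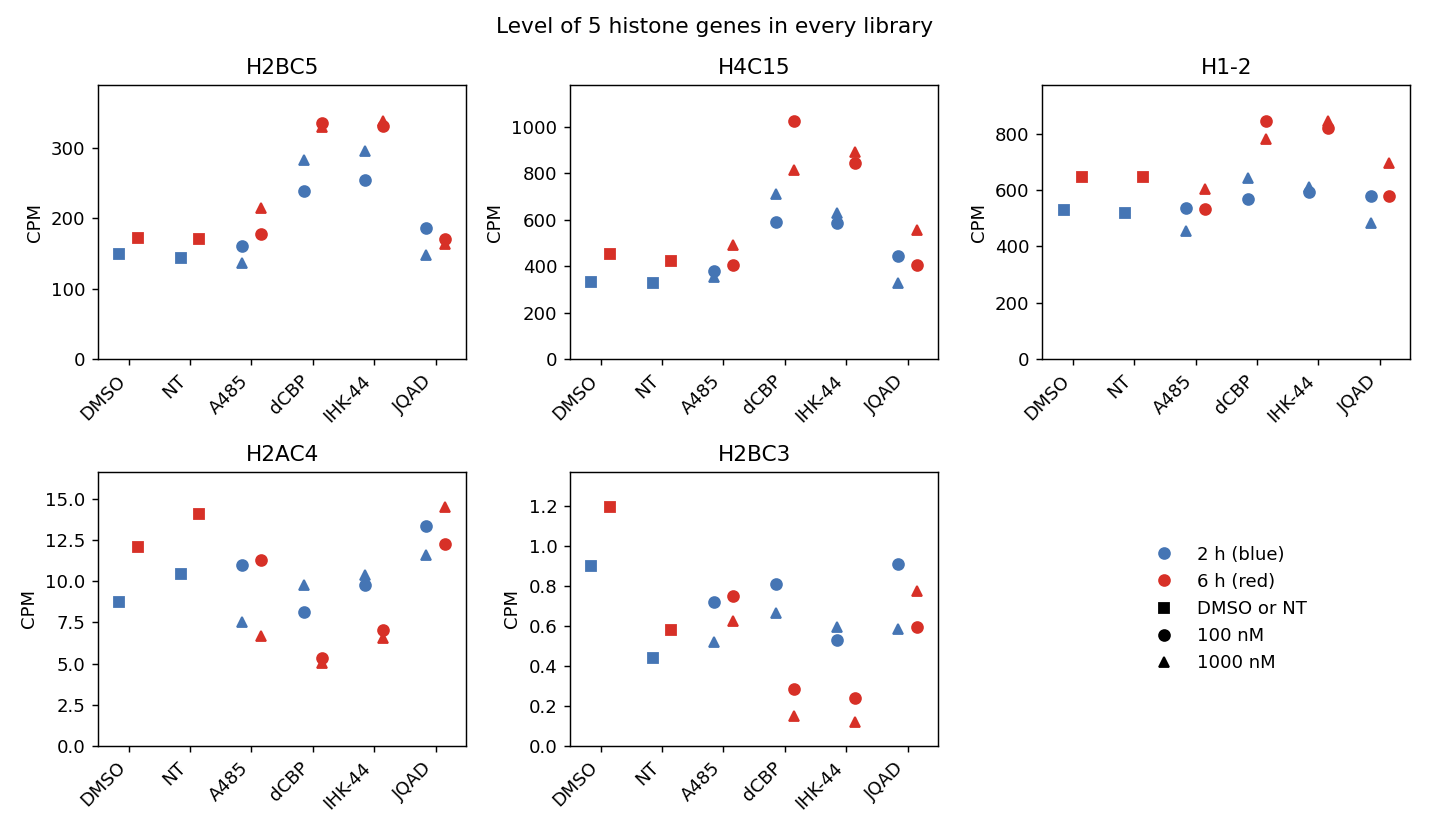
CPM of H2BC5, H4C15, H1-2, H2AC4 and H2BC3 in each library, with time as colour and dose as symbol. H2BC5 and H4C15 are higher in every dCBP and IHK-44 library than in the controls, while H2AC4 is lower than the controls in the 6 h libraries of these compounds.

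Neither A485 nor JQAD gave a call among the members against DMSO. With A485, 0 of 50 were called by edgeR and by DESeq2 and 2 had an unadjusted p under 0.05, where 0.271% of all genes were called. The member with the smallest p was H2BC14, at -1.35 ± 0.37 (edgeR adjusted p = 0.09). With JQAD, 0 of 50 were called by both tools and 1 had an unadjusted p under 0.05, where 0% of all genes were called. That member was H4C3, at 0.29 ± 0.13 (edgeR adjusted p = 1). For NT against DMSO 0 of 50 were called by either tool and none had an unadjusted p under 0.05, where again 0% of all genes were called. H2BC3 had the smallest p there, at -1.05 ± 0.57 (edgeR adjusted p = 1). The members' median log2 change was -0.05 for A485, 0.10 for JQAD and -0.02 for NT.

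The difference between compounds was tested directly against JQAD. With dCBP, 24 members were higher than with JQAD and 1 lower, where 35.3% of all genes were called in either direction and 18.9% higher. With IHK-44, 26 were higher and 1 lower, where 32.5% of all genes were called and 16.4% higher. H2BC5 again came first, at 0.70 ± 0.09 (edgeR adjusted p = 0.000198) and 0.74 ± 0.09 (adjusted p = 9.87e-05). H4C15 and H4C14 followed for dCBP, both at 0.74 ± 0.11, and H2BC18 (0.62 ± 0.09) and H2BC9 (0.47 ± 0.08) for IHK-44. H2AC4 was the member lower than with JQAD in both, by -1.001 ± 0.245 (edgeR adjusted p = 0.00671) and -0.75 ± 0.24 (adjusted p = 0.0259). For IHK-44 this call was lost without any 1 of its 6 h libraries or those of JQAD.

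A485 against JQAD gave 0 of 50 members by edgeR, 9 with an unadjusted p under 0.05 and 1 lower by DESeq2, where 4.91% of all genes were called. H2BC14 had the smallest p, at -1.03 ± 0.32 (edgeR adjusted p = 0.0698). dCBP against IHK-44 gave 0 of 50 members by both tools and 1 with an unadjusted p under 0.05, where 0% of all genes were called. H3C12 was that member, at -0.22 ± 0.09 (edgeR adjusted p = 0.724). These counts do not show that the compounds act alike.

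Dose was tested for A485 and IHK-44 within each time. For A485, 0 of the 45 members tested differed between 1000 nM and 100 nM by edgeR and by DESeq2, 4 had an unadjusted p under 0.05, and 0.863% of all genes were called. H2AC4 had the smallest p, at -0.72 ± 0.19 (edgeR adjusted p = 0.137). For IHK-44, 0 of 45 differed by both tools, none had an unadjusted p under 0.05, and 0.112% of all genes were called. H3C14 had the smallest p, at 0.99 ± 0.54 (edgeR adjusted p = 1). Summed over all members in CPM, A485 at 100 nM was above DMSO at 2 h and below it at 6 h (10534 and 10390 CPM), and at 1000 nM the reverse (9019 and 12318 CPM). JQAD had the same order, with 11819 and 10668 CPM at 100 nM and 8901 and 13138 CPM at 1000 nM. In TPM this order was not seen for A485, where all 4 libraries were 1.06 to 1.33 times DMSO. For JQAD the TPM ratios at 2 h and 6 h were 1.03 and 1.09 at 100 nM, and 0.97 and 1.14 at 1000 nM. The JQAD doses thus kept their order within each time, and only 100 nM at 6 h changed its side of DMSO. As a share of the TPM in coding rows alone, every A485 and JQAD library lay on the same side of DMSO as in CPM. These are single libraries with no replicate.

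Whether the response differed between 6 h and 2 h was tested as an interaction. It called 1 of 50 members for dCBP, where 7.56% of all genes were called, and 1 for IHK-44, where 8.24% were. H2AC4 was the member in both, lower at 6 h relative to the change at 2 h by -1.35 ± 0.35 (edgeR adjusted p = 0.0312) and -1.14 ± 0.34 (adjusted p = 0.0494). These calls rest on single libraries: they were lost without either DMSO or either NT library.

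Other genes of like length give a second background, since histone mRNAs are short. The tested members were 387 to 2224 bases long, and 3671 other tested genes fell in that window. With dCBP 17.7% of these were called and their median log2 change was 0.11, and with IHK-44 12.2% and 0.09. In the narrower window of 402 to 725 bases, which holds the middle of the members' lengths, 216 genes had medians of 0.23 and 0.21, with 18.98% and 12.04% called. Short genes thus also lay above the median of all genes. By library, the members' median log2 ratio to DMSO was 0.37 to 0.67 with dCBP and 0.54 to 0.59 with IHK-44, and that of the narrow window 0.12 to 0.46 and 0.26 to 0.40. The members stood above the short genes in all of these libraries but dCBP at 100 nM and 6 h, with 0.44 against 0.46. Where length was added as an offset, 18 members were higher and 3 lower (H2AC4, H2BC3 and H2BC6) for dCBP, and 21 higher and 1 lower (H2BC3) for IHK-44, where 25.8% and 18.3% of all genes were called.

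**Figure D5:**
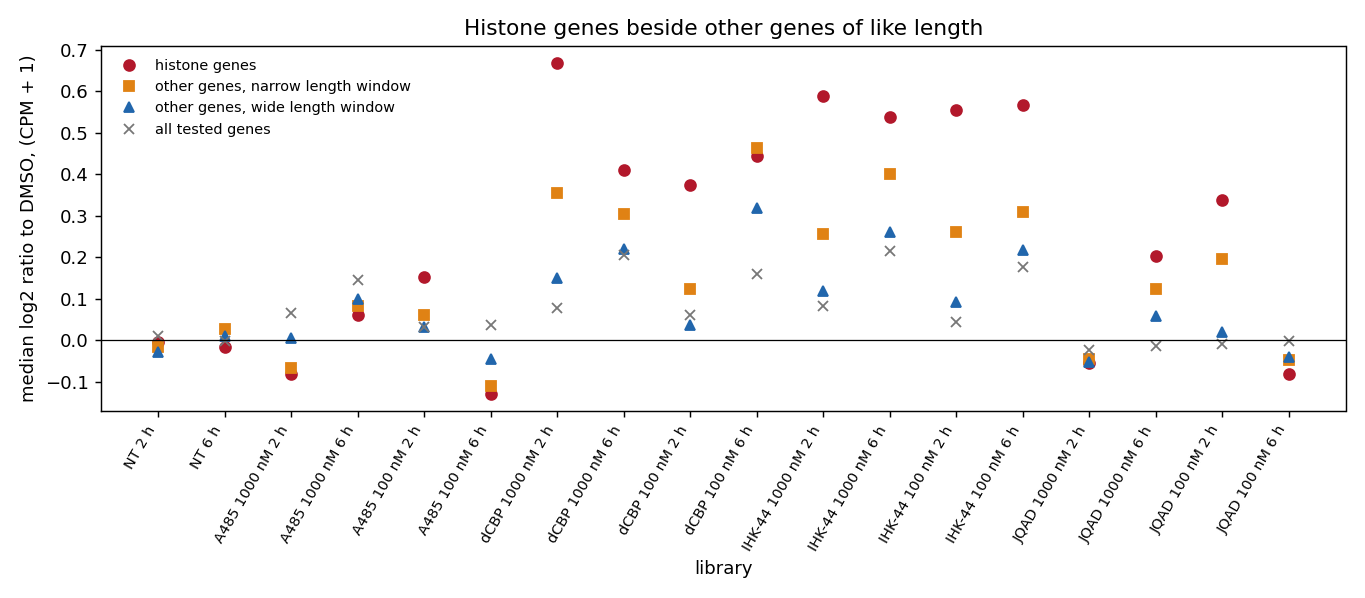
Median log2 ratio of CPM + 1 to time-matched DMSO, for the 50 tested histone genes, the 216 and 3671 other genes in the narrow and wide length windows, and all tested genes, in 18 libraries. The histone medians of dCBP and IHK-44 lie from 0.37 to 0.67, above the other sets except for dCBP at 100 nM and 6 h, where the narrow window is at 0.46.

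Genes that act around the histone genes were read from lists, to be set against the 23.7% and 16.9% of all genes called with dCBP and IHK-44. Of the 12 replication-independent variants 11 were tested, and H3-3B, which encodes H3.3, was the 1 called, at 0.39 ± 0.10 (edgeR adjusted p = 0.0172) for dCBP and 0.33 ± 0.10 (adjusted p = 0.0415) for IHK-44. The list's median was 0.24 and 0.12. Of 20 genes for histone gene transcription and mRNA processing, 2 were higher and 1 lower with dCBP and 4 higher with IHK-44, with medians of 0.09 and 0.11. LSM10, a subunit of the U7 snRNP that cuts histone pre-mRNA, rose by 0.68 ± 0.16 and 0.60 ± 0.16. CSTF2, a cleavage factor, rose by 0.45 ± 0.13 and 0.53 ± 0.13.

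Of 15 histone chaperone and assembly genes, 2 were higher and 1 lower with dCBP and 1 higher with IHK-44, with medians of 0.02 and -0.03. CHAF1B, a subunit of the CAF-1 chaperone that deposits new H3 and H4, rose by 0.48 ± 0.13 and 0.47 ± 0.13, and TONSL, which binds new H4, by 0.51 ± 0.14 with dCBP. Of 29 S phase and DNA replication genes, 7 were higher and 3 lower with dCBP, and 4 higher with IHK-44, with medians of 0.12 and 0.16. CLSPN, a replication checkpoint adaptor, rose by 0.37 ± 0.08 and 0.34 ± 0.08. POLA2, a subunit of the DNA polymerase alpha-primase complex, rose by 0.28 ± 0.08 with dCBP. MCM10, a replication initiation factor, rose by 0.35 ± 0.09 with IHK-44. The summed level of the S phase list was 1.05 to 1.24 times DMSO with dCBP, 1.09 to 1.23 with IHK-44, 0.999 to 1.09 with A485 and 0.961 to 1.01 with JQAD. In the same CPM the median log2 ratio of all tested genes was 0.06 to 0.20 with dCBP and 0.04 to 0.22 with IHK-44, and that of the summed S phase list was 0.08 to 0.31 and 0.12 to 0.30. The part of S phase in the histone change was not tested. No gene of 10 for mitosis was called by edgeR with either compound, and their summed level was 0.986 to 1.23 and 1.001 to 1.27 times DMSO.

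The labelled cell type was checked on its markers. The 8 line markers summed to 2875 to 2898 CPM in DMSO, and 6 markers of blood, epithelial, endothelial and liver cells summed to at most 1.37 CPM in any library. MYCN fell by 3.55 ± 0.60 and 4.37 ± 0.62 on the log2 scale and PAX3 by 1.21 ± 0.26 and 0.94 ± 0.26 with dCBP and IHK-44 in the edgeR fit.

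The count of calls leaned on the DMSO libraries. Without DMSO at 2 h the dCBP and IHK-44 counts were 9 and 11, where 11.8% and 8.04% of all genes were called. Without DMSO at 6 h they were 5 and 4, where 0.873% and 0.925% of all genes were called. The IHK-44 count was 16 without its 1000 nM or its 100 nM library at 6 h, where 5.22% and 6.89% of all genes were called. Fitting only the 2 groups compared gave 12 members for dCBP and 31 for IHK-44, where 10.04% and 10.1% of all genes were called.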

How the data were processed

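The rows of 20 RNA-seq libraries whose gene name matched the histone rule were taken. Members and gene lists were chosen with earlier results of these data known. Per the submitters' processing notes, the tools included STAR 2.5.3a and RSEM 1.3.3 and the builds hg38 and mm10, with no role stated. The deposited expected counts were estimated reads per gene, 88.2% of them whole. The CPM values deposited by the authors were those counts divided by the library's total over coding rows and rescaled. The deposited TPM and FPKM values were scaled over all genes that the authors quantified, per the values. The transcript length was as deposited. After rounding, these counts went into edgeR 4.0.16 (R 4.3.3; TMM, filterByExpr, Benjamini-Hochberg), with 13 residual degrees of freedom, 4 in the dose fit and 9 in the time fit. The dose fit left out the controls and blocked on the compound and time pair. The fits were tested on simulated counts. DESeq2 1.42.0, limma 3.58.1 (pseudocount 1), RLE, no scaling, no filter, a length offset, other controls and leaving out each library were alternatives. The text names, for each comparison, the 3 members with the smallest adjusted p in each direction among those called, or the 1 with the smallest p; the highest member of each type; every H1 gene; H2AC18 and H2AC19; and the 2 called genes of each list with the smallest adjusted p for dCBP and for IHK-44. H2BC6, H2AC6, H2AC14, H2BC4, H2AC11, H2BC11, H2AC12, H2AC15, H2BC15, H2AC7, H2BC7 and H3C4 were named after their values were seen. Each library held 13466631 to 16799327 coding reads. The upper bound given for genes without a read covers counting error only. Values after ± are the SE of the edgeR fit or, for summed levels, the SD over the 4 libraries of a compound.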

Additional observations from a re-analysis of the deposited data

Results flagged for a closer look

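The members called between compounds differed by a test of the difference itself. Between dCBP and JQAD 25 of 50 were called, where 35.3% of all genes were. Between IHK-44 and JQAD 27 of 50 were called, where 32.5% of all genes were. In both cases all but 1 of the called members were higher, where 18.9% and 16.4% of all genes were called higher. The called members include H2BC5, H4C15, H4C14, H2BC18 and H2BC9. The change differed between 6 h and 2 h for 1 of 50 members with dCBP and 1 of 50 with IHK-44, H2AC4 in both. Of all genes 7.56% and 8.24% were called in these 2 tests. Each of these results rests on 1 library per condition.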

How the results depend on the processing

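The alternatives were run for the 17 calls with the smallest adjusted p in each comparison and direction, and not for the other genes named. Those 17 kept their direction in each alternative that tested them: 441 of 480 values stayed past the threshold and 39 did not. The limma test on log2(TPM + 1) moved the counts to 9 for dCBP and 8 for IHK-44 against DMSO, 14 and 10 against JQAD, and 1 for A485 against both DMSO and JQAD, and it gave 0 for both time dependences. For A485, DESeq2 against JQAD gave 1, DMSO and NT pooled as control gave 1, and no filter gave 2 for dose. With only the 2 groups compared, dCBP against DMSO gave 12 and IHK-44 against DMSO 31. The time dependence of IHK-44 gave 0 also without scaling factors and with limma on log2(CPM + 1). Leaving out 1 library at a time gave 5 to 28 members for dCBP and 4 to 30 for IHK-44 against DMSO, 17 to 29 for IHK-44 against JQAD, 0 to 5 for A485 against JQAD (5 without A485 at 100 nM and 2 h), 0 to 1 for the dose of A485 (1 without any IHK-44 or JQAD library) and 0 to 1 for the time dependence of dCBP and of IHK-44. The dCBP time call was also lost without dCBP at 2 h (either dose) or at 100 nM and 6 h, and the IHK-44 one without any IHK-44 or JQAD library or dCBP at 2 h. The share of all genes called moved between settings too. For A485 against DMSO it was 0.271% in the main fit and 2.05% with limma on log2(TPM + 1). The member counts in this paragraph are therefore not read as a result about the members alone.

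In TPM the mean log2 ratios of the summed levels for A485, dCBP and IHK-44 were 0.11, -0.19 and -0.18 for H1, 0.26, 0.10 and 0.11 for H2A, 0.26, 0.066 and 0.18 for H2B, 0.22, 0.077 and 0.094 for H3, and 0.22, 0.32 and 0.29 for H4. For IHK-44 the H3 ratio was 0.62 against NT and 0.54 without H3C15. In the narrow length window the medians of other genes were 0.23 for dCBP, 0.21 for IHK-44 and 0.073 for JQAD. The causes of these shifts were not tested. No pairing by replicate number could be made, since the labels give none; the dose fit paired the doses within each compound and time.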
